A study of Homo sapiens with 6 samples.

Results

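The tight junction seals the space between neighbouring epithelial cells, and 9 of its genes are described here. They are the claudins CLDN1, CLDN3, CLDN4, CLDN7 and CLDN12, the scaffold TJP1 (the protein ZO-1), the membrane proteins OCLN (occludin) and MARVELD2 (tricellulin), and the adhesion molecule F11R (JAM-A). They were chosen by name, with earlier results of these data known. Matched by Ensembl ID and symbol, all 9 were found among the 61541 genes of the count table. RNA sequencing was done on 6 libraries labelled A498, a cell line established from a human clear cell renal carcinoma. Of these, 3 carried a control short hairpin RNA (shRNA) and 3 an shRNA against RNF26, an E3 ubiquitin ligase of the endoplasmic reticulum membrane. All were grown in the same medium with serum. The treatment label of both groups names transfection and infection. The hairpin sequences, the number of hairpins, the time after delivery and whether the cells were a pool or a clone are not stated in the labels. The labels do not call the replicates separate cultures. The p-values below therefore rest on the scatter of 3 libraries a group, and that scatter may be technical only.

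Claudins are small membrane proteins whose extracellular loops pair across the gap between cells and set which ions and solutes can pass. Occludin and tricellulin belong to the MARVEL family of membrane proteins, tricellulin being concentrated where 3 cells meet. JAM-A is an immunoglobulin-type adhesion protein, and ZO-1 is a cytoplasmic scaffold that ties the membrane proteins to actin. In the kidney each tubule segment carries its own mix of claudins, and CLDN3, CLDN4 and CLDN7 are known from the distal nephron and collecting duct. Transcript levels say nothing of whether the proteins are assembled into junctions.

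The libraries held 16682871 to 18021718 gene counts. RNF26 had 2030, 1942 and 1945 CPM (counts scaled to a library total of 1000000, after correction for library composition) with the control hairpin and 68.4, 69.2 and 68.3 CPM with the RNF26 hairpin, or 3.48% of the control level. The control level was very high, with a mean of 1972 CPM beside 1769 CPM for the keratin KRT19. The reason for this level was not tested. The label A498 was set against markers of renal tubule and clear cell carcinoma. Of 12 such genes, 2 (PAX8 and NNMT) had a mean of at least 1 CPM, EMX2 had a count of 0 in every library, and the summed level of the 12 was 5.48 to 7.07 CPM in the control group and 5.65 to 8.16 CPM in the knockdown group. All 9 markers of squamous epithelium reached a mean of 1 CPM, with a summed level of 1586 to 1702 CPM in control and 1263 to 1339 CPM in knockdown libraries. Most of that sum came from KRT5, KRT6A, SFN and TP63. In the control group KRT14 (4.04 CPM), SPRR1B (5.13 CPM), IVL (2.96 CPM) and KRT13 (1.06 CPM) were low. These data thus go against the label, and the cells are called the cells labelled A498. All 5 markers of simple epithelium were present, with KRT19 at 1769 CPM and the adherens junction cadherin CDH1 at 196 CPM in the control group, and a summed level of 3493 to 3684 CPM in control and 3272 to 3329 CPM in knockdown libraries. Of 6 fibroblast markers, only COL1A1 reached 1 CPM, COL3A1 was at 0 in every library, and the sum was 55.2 to 66.3 CPM in control and 81.9 to 88.6 CPM in knockdown libraries. Markers of endothelium (1 of 6 at 1 CPM or more, PECAM1; sums of 5.05 to 6.98 CPM) and leukocytes (1 of 6, CD14; sums of 1.67 to 2.13 CPM) were low in all libraries. The squamous sum was lower with the knockdown mainly through KRT6A (433 to 261 CPM) and SFN (399 to 205 CPM), while KRT13 (1.06 to 1.85 CPM) and TP63 (173 to 194 CPM) were called higher and KRT5 had 583 and 623 CPM. The simple epithelial sum was lower mainly through KRT8 (1010 to 850 CPM) and KRT18 (401 to 269 CPM). EPCAM (190 to 155 CPM) and CDH1 (196 to 182 CPM) were also called lower. KRT19 had 1837 CPM with the knockdown and did not pass. The fibroblast sum, which is nearly all COL1A1, was higher, and the part of these markers in the results on the tight junction genes was not tested.

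Of the 9 genes, 8 had a mean of at least 1 CPM and were tested, and 6 of the 8 fell with the RNF26 hairpin: CLDN1, CLDN4, CLDN7, CLDN12, TJP1 and F11R. None rose, and OCLN and MARVELD2 did not pass. Genes were tested by edgeR (quasi-likelihood), with p-values adjusted over all tested genes and a threshold of 0.05. The background was high, since 41.4% of the 14766 tested genes were called, 22.6% lower and 18.9% higher. Scaling by total counts alone turned that split from 3332 lower and 2785 higher to 2269 lower and 4449 higher, and then 5 of the 8 were called lower. The groups did not overlap, with the knockdown lower, for 5 of the 8 genes, against 25.9% of all tested genes. The median log2 fold change was -0.30 over the 8 genes and 0.01 over all tested genes. Since the genes were chosen with earlier results of these data known, these values describe the set and do not test it against the background. In bulk RNA, fewer cells expressing a gene and less RNA per cell cannot be told apart.

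**Figure D1:**
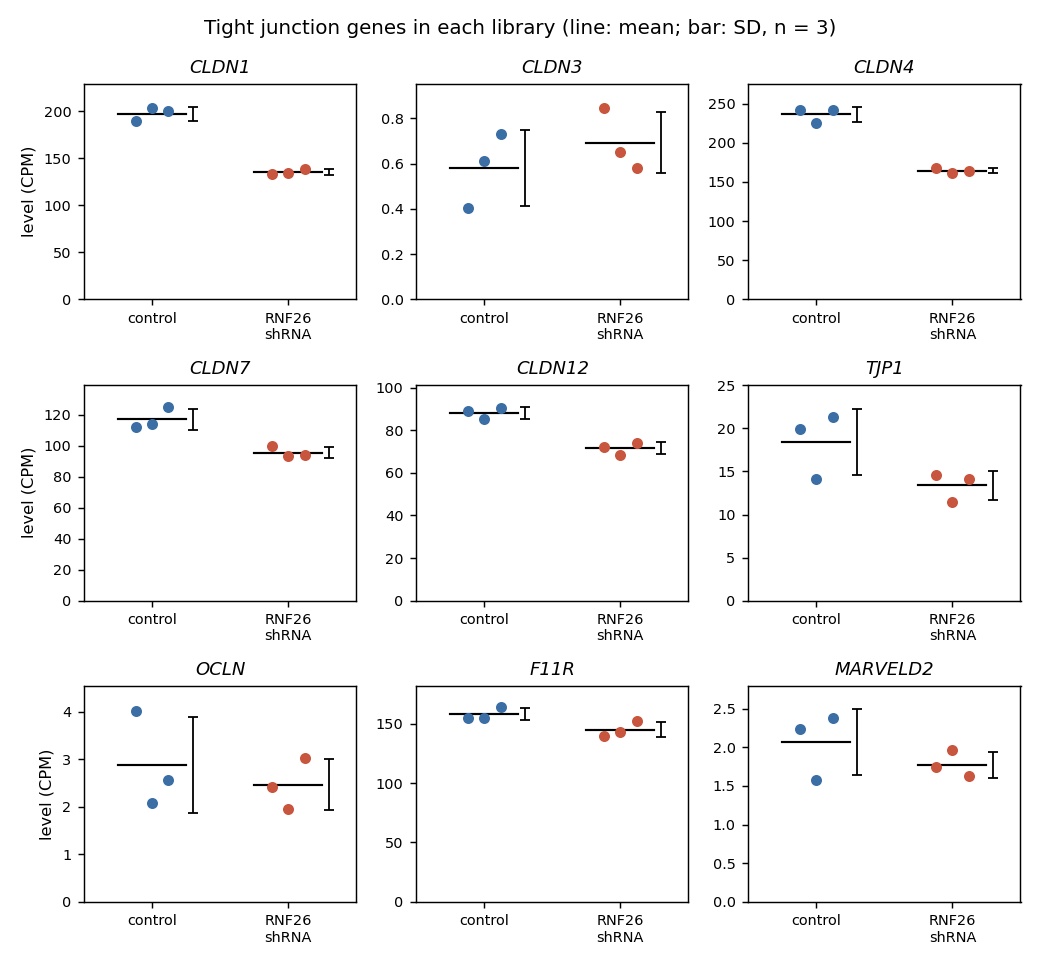
Level in CPM (vertical axes, linear and starting at 0) of each of the 9 genes in the 3 control and 3 RNF26 shRNA libraries, with the mean as a line and the SD as a bar. The groups stand apart for CLDN1, CLDN4, CLDN7, CLDN12 and F11R and overlap for CLDN3, TJP1, OCLN and MARVELD2.

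CLDN1 and CLDN4 fell most among the claudins. CLDN1, a barrier-forming claudin of skin and many other epithelia, had 189, 203 and 200 CPM with the control hairpin and 133, 134 and 139 CPM with the RNF26 hairpin. Every knockdown library lay well below every control library, and the level fell 1.46-fold (-0.54 on the log2 scale with an SE of 0.043; adjusted p by edgeR, 7.54e-09). CLDN4, a barrier-forming claudin that also serves as a receptor for a clostridial toxin, had 242, 225 and 242 CPM against 168, 161 and 164 CPM. Its groups were equally far apart, with a 1.44-fold fall (-0.52 on the log2 scale with an SE of 0.043; adjusted p by edgeR, 1.12e-08). Among all tested genes, 7.32% had a lower log2 fold change than CLDN1 and 7.76% a lower one than CLDN4.

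CLDN7 and CLDN12 fell by less. CLDN7, which binds the adhesion protein EPCAM, had 112, 114 and 125 CPM in control and 99.5, 93.3 and 93.9 CPM in knockdown libraries. The highest knockdown library lay below the lowest control library, and the log2 fold change was -0.30 with an SE of 0.051 (adjusted p by edgeR, 1.25e-04). CLDN12, an atypical claudin linked to calcium passage, had 89.0, 85.1 and 90.5 CPM against 72.3, 68.5 and 73.9 CPM. Its groups did not overlap, and it fell by 0.30 on the log2 scale (SE 0.051, edgeR adjusted p = 1.02e-04). CLDN3, the near relative and genomic neighbour of CLDN4, was at the edge of detection with 7, 10 and 12 counts with the control hairpin and 15, 12 and 10 with the RNF26 hairpin. It was below the limit for testing, and its groups overlapped. A fit with no minimum level gave it a log2 fold change of 0.26 (edgeR adjusted p = 0.75).

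Ratios of counts within each library, which need no scaling, compared CLDN1, CLDN4 and CLDN7 with each other. They were not among the planned results and left out CLDN12. They come from the same counts as the changes above and are no separate evidence. The ratio of CLDN1 to CLDN7 counts was 1.68, 1.78 and 1.60 with the control hairpin and 1.34, 1.44 and 1.48 with the RNF26 hairpin. The ratio of CLDN4 to CLDN7 was 2.15, 1.96 and 1.93 against 1.69, 1.72 and 1.74. Neither ratio overlapped between groups, and for each the exact two-sided permutation test gave p = 0.1, the smallest that 3 against 3 allows (p = 0.15 after Benjamini-Hochberg adjustment over 3 ratios). The ratio of CLDN1 to CLDN4 overlapped, with means of 0.838 ± 0.0619 and 0.825 ± 0.0305 (SD, n = 3; exact permutation p = 1, also adjusted).

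Per kilobase of exon, CLDN1, CLDN4 and CLDN7 had similar levels and CLDN12 a lower one. In the control group the levels were 53.9 ± 1.99 CPM per kb for CLDN1, 50.2 ± 2.13 for CLDN4, 47.1 ± 2.78 for CLDN7, 13.1 ± 0.412 for CLDN12 and 0.456 ± 0.130 for CLDN3 (SD, n = 3). In that order CLDN4 differed from each neighbour, CLDN1 and CLDN7, by less than their summed SDs. In the knockdown group the levels were 38.4 ± 1.35 CPM per kb for CLDN7, 37.0 ± 0.864 for CLDN1 and 34.9 ± 0.793 for CLDN4 (SD, n = 3). CLDN7 and CLDN1 differed there by less than their summed SDs, and CLDN1 was the higher of them in knockdown replicate 3 (38.0 against 37.7 CPM per kb). The summed level of the 5 claudins fell from 165 ± 4.81 to 121 ± 2.26 CPM per kb. The share of CLDN7 in that sum was 28.6% ± 0.847 in control and 31.6% ± 0.702 in knockdown libraries, that of CLDN12 was 7.94% ± 0.197 and 8.74% ± 0.232, and that of CLDN1 was 32.7% ± 1.27 and 30.5% ± 0.898 (SD, n = 3). These shares depend on the exon length used, as given in the closing part.

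These claudins made up most of the claudin transcripts in the cells. Over all 24 claudin genes listed, the 5 held 93.1% ± 0.326 of the summed level per kilobase in control libraries and 90.5% ± 0.651 in knockdown libraries. Of the 19 other claudins, 4 reached a mean of 1 CPM. CLDN15, a pore-forming claudin of the gut, had 14.2, 16.5 and 13.6 CPM in control and 17.3, 18.3 and 17.2 CPM in knockdown libraries. The groups did not overlap and the log2 fold change was 0.25 with an SE of 0.095 (adjusted p by edgeR, 0.041). That call was lost without control replicate 1 (adjusted p = 0.11) or 3 (0.16) and without knockdown replicate 1 (0.074), 2 (0.12) or 3 (0.051). It was also lost with no minimum level (0.071) and with DESeq2 (0.081). The log2 fold change stayed between 0.19 and 0.34. CLDN23 (-0.17), CLDN20 (0.06) and CLDN18 (0.00) did not pass. CLDN2, the cation pore of the proximal tubule, had 10 to 18 counts with the control hairpin and 9 to 15 with the RNF26 hairpin, and CLDN17, CLDN22 and CLDN25 had a count of 0 in every library.

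**Figure D2:**
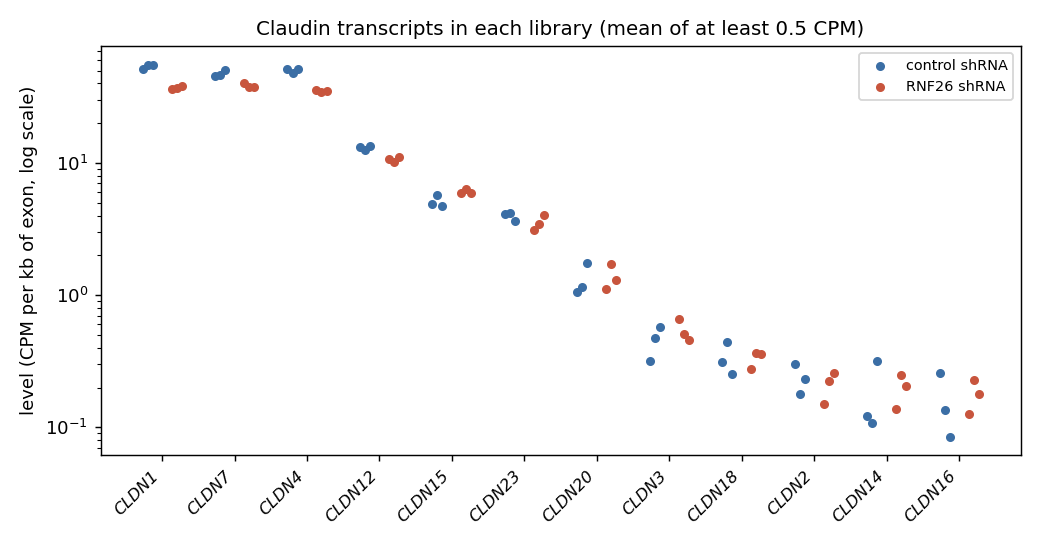
Level per kilobase of exon (vertical axis, CPM per kb, log scale) of the claudins with a mean of at least 0.5 CPM, each point being 1 library, ordered by level. CLDN1, CLDN7 and CLDN4 stand highest, their control points lie above their knockdown points, and those of CLDN15 lie below.

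The promoters of the 3 genes with the largest falls, CLDN1, CLDN4 and TJP1, are shown because all 3 genes fell. No binding was measured. The 250 bases before the RefSeq start are printed 5′ to 3′ on the gene's strand, at chr3:190322447-190322696 (minus strand), chr7:73830746-73830995 (plus strand) and chr15:29969050-29969299 (minus strand) of GRCh38.p14, a later build than the hg19 named for the counts. Capitals mark matches on either strand to 4 motifs: CAGGTG, the E-box bound by SNAI and ZEB repressors, AACCNGTT, a grainyhead-like site, TGANTCA, an AP-1 site, and GGGCGG, a GC box bound by SP and KLF factors.
CLDN1: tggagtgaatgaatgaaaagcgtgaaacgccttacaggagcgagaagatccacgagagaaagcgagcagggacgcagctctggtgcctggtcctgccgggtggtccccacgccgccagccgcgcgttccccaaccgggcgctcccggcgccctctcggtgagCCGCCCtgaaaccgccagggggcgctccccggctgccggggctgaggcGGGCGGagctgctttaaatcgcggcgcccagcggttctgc
CLDN4: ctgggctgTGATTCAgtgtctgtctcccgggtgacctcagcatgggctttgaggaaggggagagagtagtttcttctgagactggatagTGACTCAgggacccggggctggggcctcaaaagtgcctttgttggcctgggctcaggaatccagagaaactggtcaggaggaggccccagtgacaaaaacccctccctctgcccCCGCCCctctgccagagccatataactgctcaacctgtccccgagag
TJP1: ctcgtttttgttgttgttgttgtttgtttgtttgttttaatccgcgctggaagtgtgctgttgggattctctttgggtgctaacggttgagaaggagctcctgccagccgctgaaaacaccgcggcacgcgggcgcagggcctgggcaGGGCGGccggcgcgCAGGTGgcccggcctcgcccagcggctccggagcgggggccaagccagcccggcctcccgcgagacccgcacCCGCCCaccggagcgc
CLDN1 had 2 GC boxes, at 88 and 40 bases before the start. CLDN4 had TGATTCA at 242 and TGACTCA at 161 bases before the start and 1 GC box at 47. TJP1 had CAGGTG at 88 bases and GC boxes at 102 and 16 bases. Of the 8 genes with an entry, OCLN also held CAGGTG, at 33 bases, and 1 GC box, at 55 bases. CLDN3 held 4 GC boxes and MARVELD2 held 3, and CLDN7 and CLDN12 held none of the 4 motifs. F11R was not among the entries. In 27305 promoters of the same length, 17.5% held CAGGTG, 1.48% AACCNGTT, 6.60% TGANTCA and 42.3% GGGCGG. A match describes the letters of this window and is not a binding site by itself.

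TJP1, the scaffold, fell from a low level. It had 19.9, 14.1 and 21.3 CPM with the control hairpin and 14.6, 11.5 and 14.1 CPM with the RNF26 hairpin. Control replicate 2 lay within the range of the knockdown libraries, so the groups overlapped. The log2 fold change was -0.46 with an SE of 0.13 (adjusted p by edgeR, 0.0083). The call was lost without control replicate 3 (log2 fold change -0.35, adjusted p = 0.051), and the value was -0.62 without control replicate 2.

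Both MARVEL proteins were near the lower limit of testing. OCLN, which with claudins forms the junctional strands, had 70, 34 and 42 counts with the control hairpin and 43, 36 and 52 with the RNF26 hairpin, or 2.88 ± 1.02 against 2.47 ± 0.536 CPM (SD, n = 3). The groups overlapped, and control replicate 1 was the highest library. Its log2 fold change was -0.23 with a 95% interval of -0.78 to 0.31 (edgeR adjusted p = 0.51), and it was 0.09 without control replicate 1, so neither a fall nor a rise of moderate size can be told from the spread at this depth. MARVELD2 had 39, 26 and 39 counts against 31, 36 and 28. Its groups overlapped too, with a log2 fold change of -0.22 and a 95% interval of -0.74 to 0.31 (edgeR adjusted p = 0.52).

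F11R had the smallest change among the 6 called genes. It had 155, 155 and 164 CPM with the control hairpin and 140, 143 and 152 CPM with the RNF26 hairpin. The groups did not overlap, but the lowest control and highest knockdown library were close. The log2 fold change was -0.12 with an SE of 0.046 (adjusted p by edgeR, 0.036). Scaling by total counts (-0.03, adjusted p = 0.57) or by upper quartile (-0.07, adjusted p = 0.22) ended the call, as did leaving out control replicate 2 (adjusted p = 0.054) or 3 (0.11), or knockdown replicate 1 (0.18) or 2 (0.10). Per kilobase, the control levels of the 4 genes that are not claudins were 31.2 ± 1.06 CPM per kb for F11R, 1.64 ± 0.342 for TJP1, 0.426 ± 0.150 for OCLN and 0.385 ± 0.0790 for MARVELD2 (SD, n = 3), the last 2 not differing beyond their spread.

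Some of these counts could hold or lose reads of other genes. Of the 50-base stretches in GENCODE 29 transcripts of F11R, 34.7% also occurred in AL591806.3, which overlaps it on the same strand and had 8 to 26 counts. For OCLN, 7.79% occurred in its partial copy OCLNP1, which had 0 to 3 counts. For CLDN12, 12.6% were shared with other genes, among them the overlapping GTPBP10 on the same strand (370 to 496 counts). The exons of CLDN12 also overlap those of CDK14 on the same strand (884 to 1025 counts). For CLDN7, 8.25% were shared, and its exons also overlap ELP5 on the opposite strand (451 to 616 counts). CLDN3 and CLDN4 shared 22 such stretches. CLDN1 and TJP1 shared none with any other gene.

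The other genes of the tight junction went both ways. A wider list of 58 further genes had 37 tested, of which 8 fell, 5 rose and 24 did not pass, with a median log2 fold change of -0.03. Called genes made up 35.1% of the 37, against the 41.4% of all tested genes. Leaving out 1 library gave 6 to 9 lower and 3 to 4 higher, with 3 higher without control replicate 1 or knockdown replicate 1.

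The largest change on that list was in the polarity proteins, which set the apical side of the cell at the junction. PARD6B, a subunit of the PAR complex with atypical protein kinase C, had 54.4, 50.8 and 60.1 CPM with the control hairpin and 16.7, 16.5 and 17.0 CPM with the RNF26 hairpin. The groups were far apart, a 3.30-fold fall (-1.72 on the log2 scale with an SE of 0.075; adjusted p by edgeR, 6.77e-13). CRB3, the epithelial Crumbs protein, fell by 0.56 on the log2 scale (SE 0.11). The other 6 polarity genes, among them PARD3, PRKCI and PALS1, did not pass. Of 12 tested plaque scaffolds, AMOTL2, an angiomotin that binds YAP, fell from 131 ± 3.28 to 68.3 ± 1.48 CPM (-0.94 on the log2 scale, with an SE of 0.047). MPDZ, a multi-PDZ scaffold, rose by 0.30 (SE 0.062) and 10 did not pass. The share called among the scaffolds was 16.7%, also below that of all tested genes.

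Of the remaining membrane proteins, LSR, an angulin of tricellular contacts, fell from 209 ± 12.2 to 169 ± 9.36 CPM (-0.31 on the log2 scale, with an SE of 0.050). MARVELD1, listed as a member of the MARVEL family, rose from 65.4 ± 1.80 to 79.6 ± 2.66 CPM (0.28, SE 0.052). MARVELD3, the other listed MARVEL protein, had 39.5 CPM in control and 35.5 CPM in knockdown libraries. Its groups did not overlap, but it did not pass (-0.15, edgeR adjusted p = 0.073). JAM2, a relative of F11R, rose from 1.91 ± 0.214 to 2.94 ± 0.620 CPM (0.62, SE 0.24, edgeR adjusted p = 0.041). The JAM2 call was lost without control replicate 1 (adjusted p = 0.080) or 2 (0.12) or knockdown replicate 1 (0.21), with no minimum level (0.064) and with DESeq2 (0.086). Of 6 signalling proteins at the junction, 4 fell and 1 rose (all tested genes: 22.6% lower, 18.9% higher). ARHGEF2, an exchange factor for RhoA, fell by 0.70 on the log2 scale, YBX3, a Y-box factor that binds ZO-1, by 0.21, ARHGAP17 by 0.20 and ARHGEF18 by 0.15, and ARHGEF11 rose by 0.22. Total-count scaling ended the calls of ARHGAP17 (adjusted p = 0.16) and ARHGEF18 (0.39). Upper quartile scaling also ended them (0.065 and 0.16). The call of ARHGAP17 was lost as well without control replicate 1 or knockdown replicate 2 or 3 (adjusted p of 0.051 to 0.063), and that of ARHGEF18 without control replicate 1 or 2 or knockdown replicate 1 or 3 (0.064 to 0.17).

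**Figure D3:**
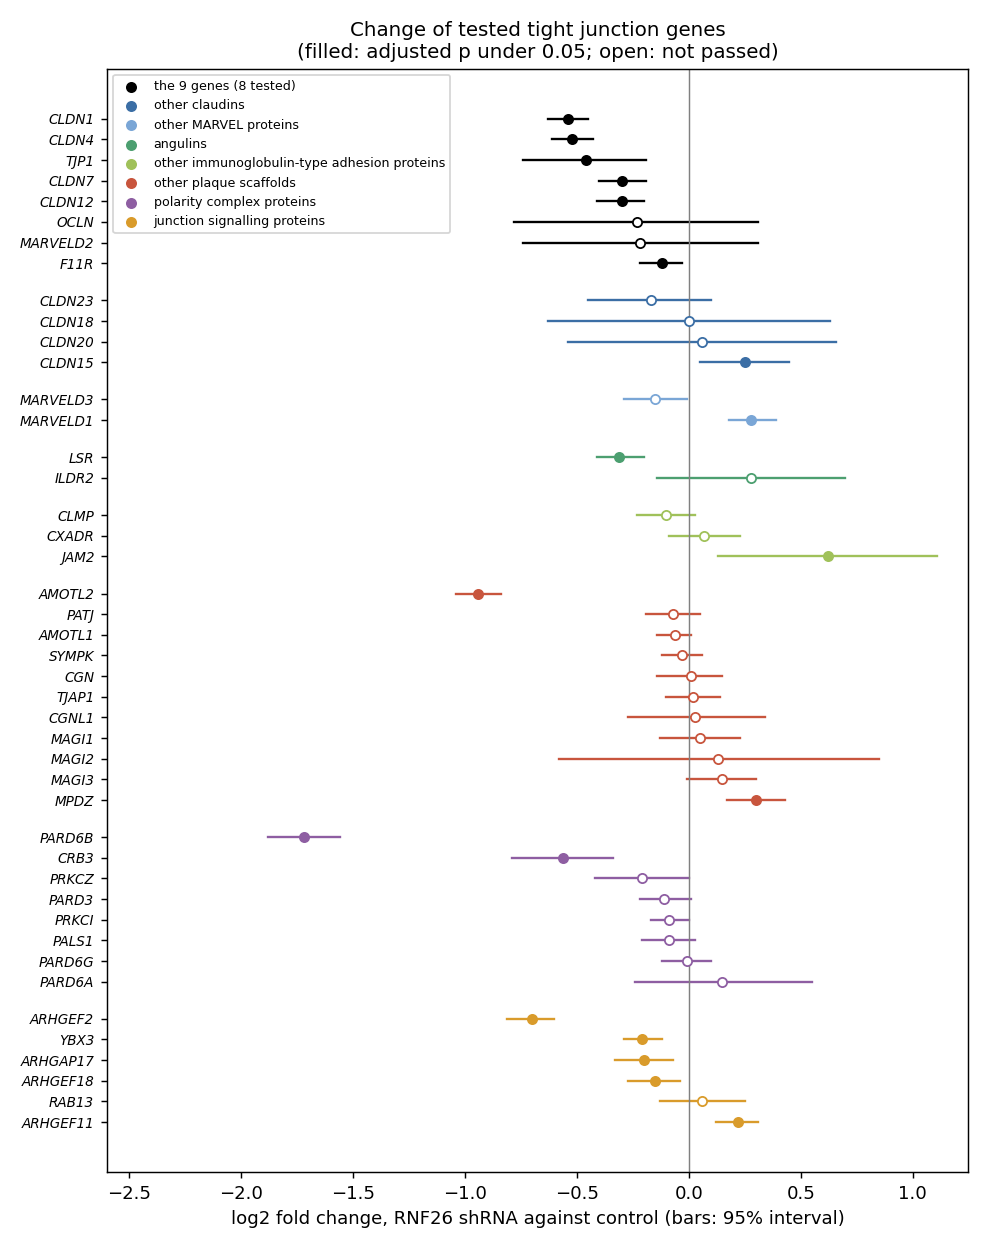
Log2 fold change of RNF26 shRNA against control (horizontal axis, with 95% intervals) for the 8 tested genes of the set in black and 36 of the 37 tested genes of the wider list by role, filled where the adjusted p was under 0.05. All 8 black points lie left of 0, and the wider list lies on both sides, from PARD6B at -1.72 to JAM2 at 0.62.

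A list of 7 tested claudin partners joined claudin-binding membrane proteins with the protease matriptase (ST14) and its inhibitors. Of these, 4 were called lower, 0 higher and 3 missed the threshold, beside 22.6% lower and 18.9% higher among all tested genes. EPCAM, the partner of CLDN7, fell from 190 ± 10.5 to 155 ± 6.23 CPM (-0.30 on the log2 scale with an SE of 0.048; adjusted p by edgeR, 6.01e-05). SPINT1 (-0.37) and SPINT2 (-0.32), the membrane inhibitors of matriptase, and the tetraspanin CD9 (-0.17) also fell. The call of CD9 was lost with total-count scaling (-0.08, adjusted p = 0.17).

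Of 4 tested transcription factors known to repress junction genes, 3 fell and 1 did not pass, where 22.6% of all tested genes fell. SNAI2 (Slug), which can repress CDH1 and claudin genes through E-boxes, had 297, 315 and 322 CPM with the control hairpin and 74.0, 67.5 and 69.4 CPM with the RNF26 hairpin. The groups were far apart, a 4.43-fold fall (-2.15 on the log2 scale with an SE of 0.048; adjusted p by edgeR, 3.47e-17). SNAI1 (Snail) fell from 3.08 ± 0.178 to 0.639 ± 0.330 CPM (-2.26, SE 0.32), on 5 to 16 counts with the RNF26 hairpin. With limma on log2(CPM + 1) its value was -1.34. ZEB2 fell by 0.51 on the log2 scale (SE 0.11), TWIST1 had -0.04 and did not pass, and ZEB1 had a mean below 1 CPM in both groups.

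Factors that promote the epithelial state went both ways, with 4 of 9 tested lower, 4 higher and 1 not passing, against 22.6% lower and 18.9% higher over all tested genes. KLF4, a Krüppel-like factor of epithelial differentiation, had 135, 136 and 123 CPM with the control hairpin and 23.1, 24.8 and 24.4 CPM with the RNF26 hairpin (-2.45 on the log2 scale with an SE of 0.059; adjusted p by edgeR, 8.55e-17). OVOL1, which represses mesenchymal genes, fell by 1.05 on the log2 scale, its relative OVOL2 by 0.27 and KLF5 by 0.36. ELF3, an epithelial ETS factor, rose by 0.60, GRHL1 by 0.34, GRHL2, a grainyhead-like factor known to bind the CLDN4 gene, by 0.18 and TP63, the factor of basal and squamous epithelium, by 0.17. The call of OVOL2 was lost in 9 of 16 alternative fits, with log2 values of -0.34 to -0.18 over all of them, and that of GRHL1 without control replicate 3 (adjusted p = 0.053) or knockdown replicate 2 (0.051). How these factors bear on the tight junction genes was not tested.

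**Figure D4:**
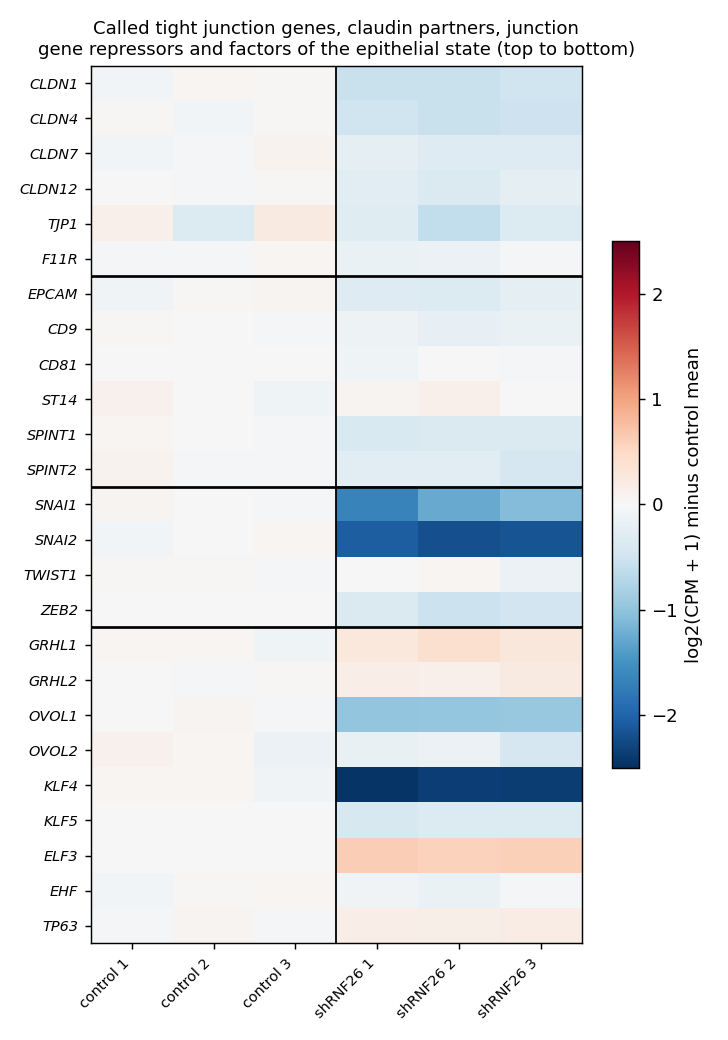
Difference of log2(CPM + 1) from the control mean (colour, limits ±2.5) in each of the 6 libraries for the 6 called tight junction genes, then 6 of the 7 tested claudin partners, repressors of junction genes and factors of the epithelial state, separated by lines. SNAI2, SNAI1, KLF4 and OVOL1 show the strongest falls, and the claudins show a paler fall in all 3 shRNF26 libraries.

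Among 10014 other genes with a mean of at least 10 CPM, the 3 whose profile over the 6 libraries was most like that of CLDN1 were USP1, GNA13 and AEN. Likeness was the root mean square difference between log2(CPM + 1) profiles, each centred on its own mean, and it was 0.0150 for USP1, 0.0193 for GNA13 and 0.0205 for AEN. USP1 went from 341 to 235 CPM (-0.54 on the log2 scale, with an SE of 0.041) and GNA13 from 220 to 149 CPM (-0.57, SE 0.045). No gene of the set rose, so no likeness to a rise was computed.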

How the data were processed

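The authors deposited 1 table of raw gene counts for 61541 Ensembl genes in 6 libraries. The table is named for FPKM, but the deposited values are whole numbers with totals that differ between libraries, and they were analysed as such. The submitters' processing notes name build hg19. No aligner, counter, annotation or strand setting is stated in the labels, and the library kit marks strand per the labels' protocols. The table had 2 blank rows holding 0% of the counts, which were left out. A gene name table gave symbols for 61369 of the IDs.

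Libraries were scaled by trimmed mean of M values (TMM) factors of 0.966 to 0.971 (control) and 1.03 (knockdown). Genes with a mean of at least 1 CPM were tested by edgeR 4.0.16 (R 4.3.3) with its two-sided quasi-likelihood test, adjusted by Benjamini-Hochberg over 14766 genes at 0.05, after a test on simulated data. Each standard error was obtained by dividing the size of the log2 change by the root of the F statistic. Alternatives used limma 3.58.1 and DESeq2 1.42.0. Levels per kilobase used the union of GENCODE 29 exons. At this depth 3 counts, the limit that a count of 0 allows, are 0.163 to 0.183 CPM, for counting error only. Replicate pairs within a group differed by more than counting noise (chi-square per degree of freedom 2.31 to 4.98), so none was treated as 1 library deposited more than once. This does not show that they came from separate cultures.

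Groups and replicate numbers came from the titles. The 9 genes and the other lists were chosen with earlier results of these data known. Named were the 9 genes and RNF26, up to 4 called genes per list with the largest change, other claudins with at least 1 CPM, and the 3 profiles most like the largest called fall. ARHGEF18, TP63, GRHL1, GRHL2, OVOL2 and TWIST1, and genes given as examples that did not pass, were named after their values were seen. A few genes of the lists are counted but not reported by name here.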

Additional observations from a re-analysis of the deposited data

How the results depend on the processing

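The falls of CLDN1 (-0.58 to -0.45), CLDN4 (-0.56 to -0.43), CLDN7 and CLDN12 (each -0.33 to -0.21) kept their direction and call in each of the 16 alternative fits, which changed the scaling, the minimum level or the test, added a block or left out 1 library. With total-count scaling 4449 genes were called higher. The wider list had 3 genes called higher with no minimum level and 3 with DESeq2, and 3 to 4 when 1 library was left out. F11R had -0.03 with total-count scaling and -0.07 with upper quartile scaling, and -0.16 to -0.10 when 1 library was left out. TJP1 had -0.62 to -0.35 when 1 library was left out. The set had 4 to 6 genes called then, with 4 without control replicate 3. The share of each claudin in the control libraries moved with the length used: the exon union exceeds the longest transcript most for CLDN12. With the longest transcript CLDN1 had 28.4%, CLDN4 28.4%, CLDN7 30.5% and CLDN12 12.4%, and with plain counts 30.9%, 36.9%, 18.3% and 13.8%, with CLDN3 at 0.0905%. OCLN and MARVELD2 had no value at a minimum of 5 CPM, and CLDN3 had values only with no minimum level and with edgeR's own filter (0.26 in both). Deviations from the group mean were only weakly correlated between same-numbered replicates (0.0110, -0.0272 and 0.0934). Between differently numbered replicates the correlations ran from -0.119 to 0.118. With 3 libraries a group this cannot show whether same-numbered libraries shared a preparation, and the labels do not say. With the replicate number as a block, 6414 genes (6117 without it) and 6 of the set were called. CLDN1 was then at -0.54 and TJP1 at -0.45 (edgeR adjusted p = 3.08e-04). TJP1 was lower with the RNF26 hairpin in each same-numbered pair, but this rests on the numbering. Its control replicate 2 (14.1 CPM) lay below knockdown replicate 1 (14.6 CPM).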
